A study of Mus musculus with 8 samples.

Results

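Neurons make neuropeptides as larger precursor proteins, and the 43 mouse genes described here encode such precursors, the granins that are packed with them, and the enzymes that process them. The members were chosen by symbol from knowledge of the pathway, with no measured value in the rule but with earlier results of these data known, and 42 of the 43 were matched among the 48709 genes listed for each sample (Kiss1 was not analysed here). RNA of the P3 cortex was sequenced from 4 dcKO_hGFAP-Cre and 4 control mice, to ask how the loss of BAF155 and BAF170, scaffold subunits of the BAF chromatin remodeling complex, alters gene expression. All mice were on a C57BL/6J background and at postnatal day 3. The mutants were BAF155 fl/fl; BAF170 fl/fl; hGFAP-Cre pos/+, and the study's methods give its controls as BAF155 fl/+; BAF170 fl/+; Cre pos/+, whereas the sample labels call the same mice control or wild type. hGFAP-Cre is active chiefly in radial glia of the dorsal telencephalon (dTel) of the embryo, and the mutants died soon after birth. The labels name the tissue as cortex and the methods as dTel.

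A neuropeptide precursor enters the regulated secretory pathway, where granins help to form dense-core vesicles and to concentrate their cargo. Inside the vesicle, prohormone convertases cut the precursor at pairs of basic residues, carboxypeptidase E trims the exposed residues, and peptidylglycine alpha-amidating monooxygenase amidates many of the products. In the cerebral cortex, excitatory neurons are known for cholecystokinin and interneurons for somatostatin and neuropeptide Y, while oxytocin, vasopressin and hypocretin come chiefly from the hypothalamus.

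Total counts were 22106718, 21126713, 31805395 and 30553135 in control samples 1 to 4 and 22002784, 22812236, 28249608 and 32110285 in mutant samples 1 to 4. Samples 1 and 2 of each group were sequenced on lane 5, sample 3 on lane 6 and sample 4 on lane 7. Levels are given in CPM, the count of a gene scaled by the TMM method to a common total, in the order of samples 1 to 4, unless another scale is named. Adjusted p values are from the quasi-likelihood test in edgeR, adjusted by Benjamini-Hochberg over all genes tested, and ranges of them over alternatives refer to those of 18 other settings in which the gene was tested. Log2 fold changes are of mutants over controls and are given ± SE. The level of Smarcc1, which encodes BAF155, was 144, 162, 170.5 and 160.4 CPM in controls and 79.4, 73.6, 86.9 and 84.7 CPM in mutants (log2 fold change -0.97 ± 0.08 (SE), adjusted p = 5.44e-06). For Smarcc2, which encodes BAF170, the levels were 500.3, 472, 489 and 469 CPM in controls and 291, 266, 256 and 319 CPM in mutants (log2 fold change -0.77 ± 0.08 (SE), adjusted p = 2.28e-05). Every mutant lay below every control for both deleted genes, although Dhx30 overlaps Smarcc1 and may share its reads.

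Cortical markers were present in all 8 samples. The 9 markers of cortical excitatory neurons summed to 1832, 1853, 2014 and 2021 CPM in controls and 1023, 966, 1008 and 1147 CPM in mutants, and 7 of them were called lower and none higher. Per length (TPM, counts over exon length), their most abundant gene was Neurod6 in controls and Neurod2 in mutants, both neuronal transcription factors, and where the most abundant gene of another list is given, it is by mean TPM. In CPM, Neurod6 was at 415 ± 25.6 CPM in controls and 101 ± 22.3 CPM in mutants (SD, n = 4 each). The 8 markers of neurons in general summed to 9665, 9902, 10230 and 10580 CPM in controls and 7186, 7601, 7939 and 7554 CPM in mutants, with 7 called lower, and Tubb3, a neuronal tubulin, was the most abundant in both groups. In bulk tissue, fewer cells of a type and less RNA per cell cannot be told apart. Mutants 1 and 2 stood apart in summed choroid plexus markers, led by Ttr, the carrier of thyroid hormone in cerebrospinal fluid. Ttr was at 584, 1128, 15.8 and 1.72 CPM in mutants 1 to 4 against 3.17, 9.37, 0.0664 and 1.8 CPM in controls. It was not called (adjusted p = 0.0568).

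Of the 43 members, 30 passed the filter on low counts and were tested, 12 did not pass it, and 1 was not matched. At an adjusted p under 0.05, 10 of the 30 were lower in mutants (33.3%, against 18.9% of all 16525 genes tested) and 3 were higher (10%, against 18.6%). The 13 called members made up 43.3% of the 30, against 37.5% of all genes tested. In 14 of the 30 the groups were fully separate, with every mutant above or every mutant below the controls (46.7%, against 34.4% of all genes tested), 10 of them with all mutants below. The median log2 fold change was -0.14 over the 30 members and 0.02 over all genes tested. Because members were not drawn at random and earlier results were known when they were chosen, no test was made of the list. With the lane as a block, 11 members were lower and 4 were higher, while 3242 of all genes were lower and 3208 higher. With mutants 1 and 2 left out, 7 members were called lower and 1 higher, a fit on fewer samples in which 1581 of all genes were lower and 1388 higher. Scaling by library totals raised the median of all genes by 0.12 on the log2 scale and gave 4584 higher and 2102 lower calls (68.6% higher, against 49.6% with TMM). Under that scaling 10 members were lower and 5 were higher.

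**Figure D1:**
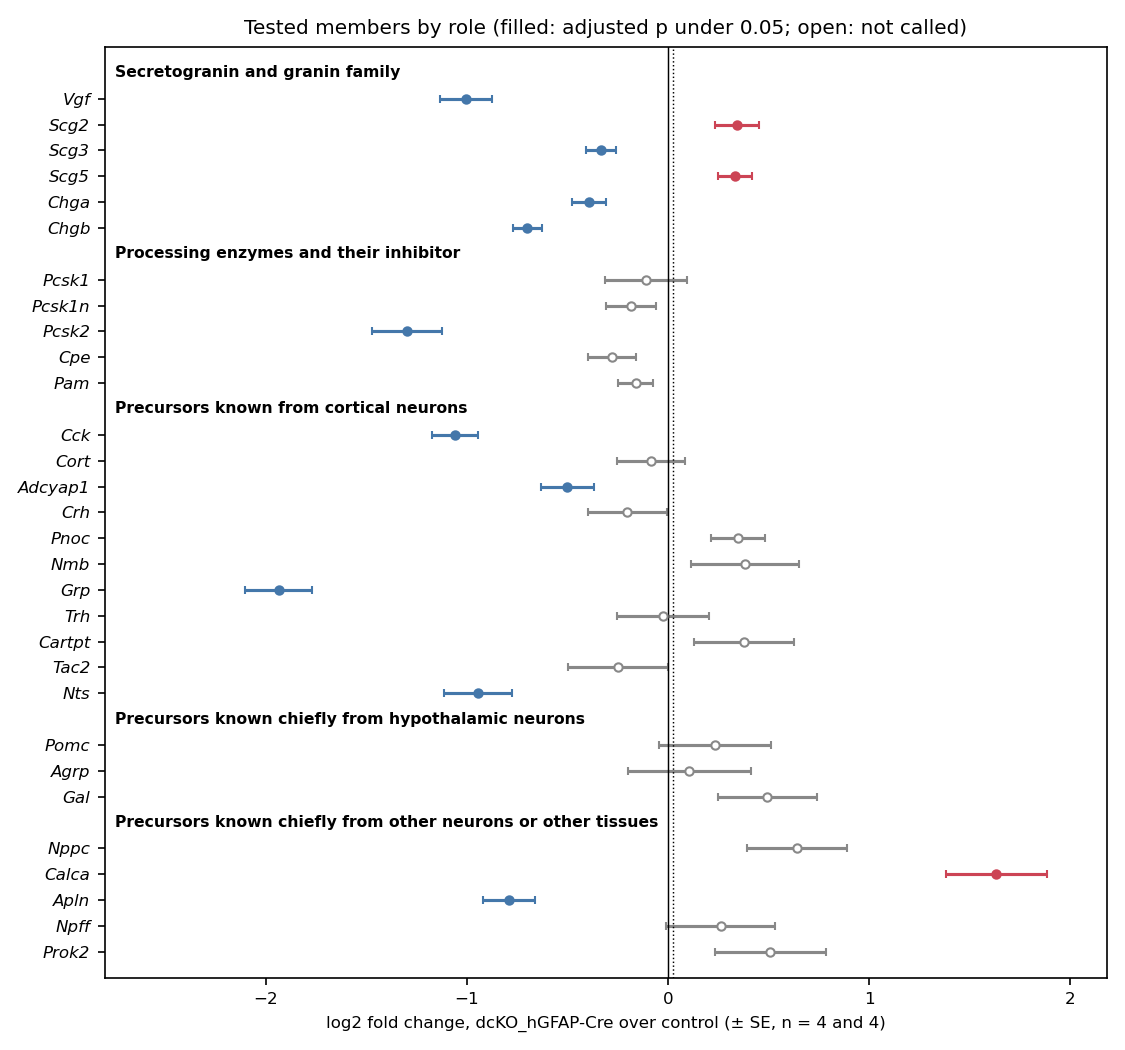
Log2 fold change (dcKO_hGFAP-Cre over control) of the 30 tested members, grouped by role; bars show ± SE, n = 4 in each group, filled points are called at an adjusted p under 0.05 and the dotted line marks the median of all genes tested. Pcsk2 is the only filled point among the processing genes, and Grp (-1.94) and Calca (1.63) lie farthest out on either side.

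Transcript levels were compared between genes only per length, as TPM, in which counts are divided by the summed exon length and then scaled to a common total. Carboxypeptidase E (Cpe) had the highest level in control cortex, 1590 ± 86.1 TPM (SD, n = 4), and made up 37.3% to 45.0% of the summed TPM of all matched members in the 8 samples. It was followed by Pcsk1n at 419.6 ± 75.4, Scg5 at 307 ± 21.2, Scg3 at 297 ± 24.4 and Chgb at 254 ± 12.2 TPM in controls. The control ranges of Scg5 and Scg3 overlapped, so these neighbours did not differ beyond their spread, whereas Cpe lay above Pcsk1n in every control. Among the precursor members, a list that leaves out the granins, Cck was highest in controls at 219 ± 16.1 TPM. It was followed by Nts at 182 ± 21.7 and Grp at 81.8 ± 8.89 TPM. The ranges of Cck and Nts overlapped, although Cck lay above Nts within each control sample. Pcsk1, a main convertase of the pathway, was low at 2.02 ± 0.428 TPM in controls, and Pcsk2 was at 84.4 ± 4.12 TPM. In mutants the TPM level of Cck was 104 ± 11.4 and that of Scg5 381 ± 15.3. The mutant ranges of Scg5 and Pcsk1n, at 365 ± 18.9 TPM, overlapped, so these neighbours did not differ beyond their spread.

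**Figure D2:**
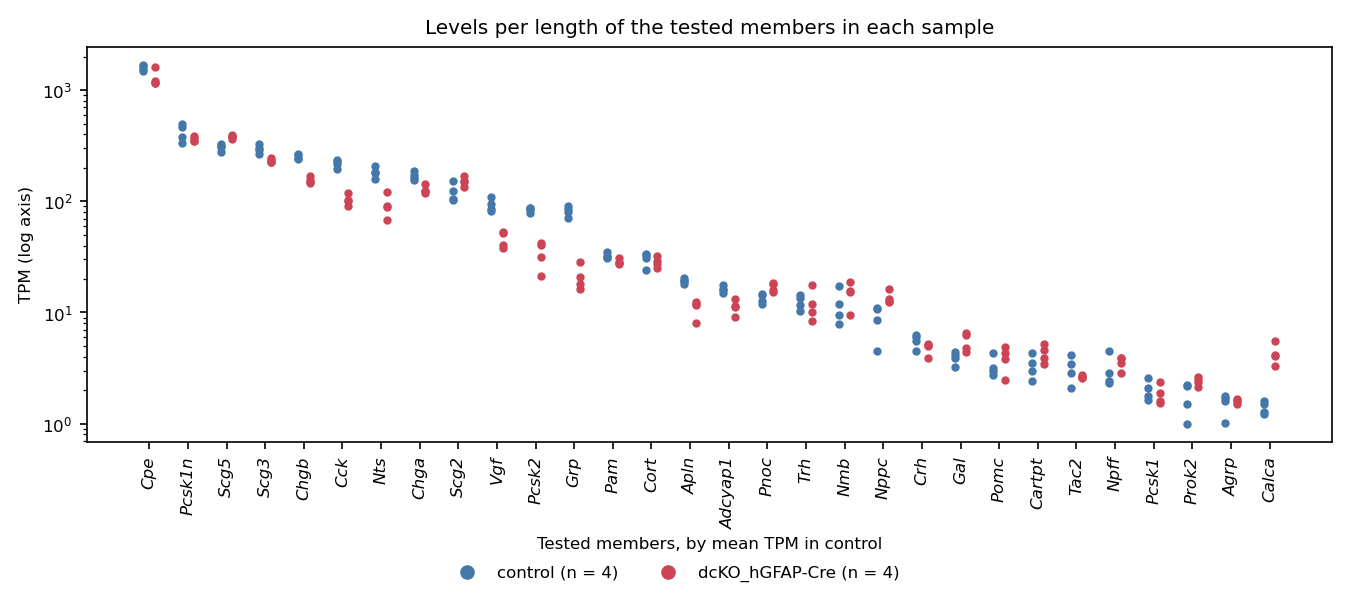
Levels per length (TPM, log axis) of the 30 tested members in each of the 4 control (blue) and 4 dcKO_hGFAP-Cre (red) samples, ordered by the control mean. Levels range from Cpe at 1590 TPM to Calca at 1.40 TPM in controls, and red points lie clear below blue ones for Cck, Nts, Vgf, Pcsk2 and Grp.

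All 6 members of the granin group were called, 4 lower and 2 higher, where 37.5% of all genes tested were called, 18.9% lower and 18.6% higher. The level of Vgf (ENSMUSG00000037428, chr5:137026392-137033351, plus strand, GRCm38), a nerve growth factor-inducible precursor of several peptides, was 63.1, 65.1, 85.3 and 76.6 CPM in controls and 30.4, 32, 43.1 and 38.7 CPM in mutants. The groups did not overlap, and Vgf fell 2.01-fold (log2 fold change -1.01 ± 0.13 (SE), adjusted p = 0.000111). Chgb (ENSMUSG00000027350, chr2:132781278-132795079, plus strand) encodes chromogranin B, a major soluble protein of dense-core vesicles. Its levels were 172, 189, 186 and 179.8 CPM in controls and 103, 112, 116 and 116 CPM in mutants (log2 fold change -0.70 ± 0.07 (SE), adjusted p = 2.24e-05). All mutants were below all controls, with little spread within either group. Chga (ENSMUSG00000021194, chr12:102554969-102565028, plus strand), which encodes chromogranin A, was at 109.6, 114, 134 and 129 CPM in controls and 85.7, 93.1, 93.1 and 99.3 CPM in mutants (log2 fold change -0.39 ± 0.08 (SE), adjusted p = 0.00336). The groups did not overlap, with mutant 4 nearest to the lowest control, 1. Scg3 (ENSMUSG00000032181, chr9:75643189-75684056, minus strand), whose product binds chromogranin A at the vesicle membrane, was at 204, 230.5, 215 and 199 CPM in controls and 156, 173, 178 and 167 CPM in mutants (log2 fold change -0.33 ± 0.08 (SE), adjusted p = 0.00479). No mutant reached the controls, but another gene on the opposite strand overlaps Scg3 and may share its reads.

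The remaining granin members moved the other way. Scg5 (ENSMUSG00000023236, chr2:113776362-113829121, minus strand) encodes 7B2, the chaperone of the convertase encoded by Pcsk2. Its levels were 125, 112, 134 and 132 CPM in controls and 158, 169, 165 and 142 CPM in mutants (log2 fold change 0.33 ± 0.08 (SE), adjusted p = 0.00881). All mutants lay above all controls, mutant 4 by the least. Scg2 (ENSMUSG00000050711, chr1:79434669-79440120, minus strand), the precursor of secretoneurin, was at 97.8, 80.5, 66.9 and 72 CPM in controls and 95.5, 95.6, 105 and 105 CPM in mutants (log2 fold change 0.34 ± 0.11 (SE), adjusted p = 0.0259). The groups overlapped, because control 1 lay above mutants 1 and 2, and the log2 ratio of mutants to controls was 0.11 within lane 5, 0.65 within lane 6 and 0.54 within lane 7. The call of Scg2 was lost without any one of control 2 (0.0609), control 3 (0.0886), control 4 (0.0914), mutant 1 (0.0566), mutant 2 (0.0572), mutant 3 (0.0548) or mutant 4 (0.0568), with the adjusted p of each in parentheses, and in lane 5 alone its log2 fold change was 0.09 (adjusted p = 0.629; 0.00298 to 0.629 over all alternatives). Without mutants 1 and 2, the adjusted p was 0.0581 for Scg3, 0.0538 for Chga, 0.0928 for Scg5 and 0.0852 for Scg2, with the directions unchanged. Over all alternatives it ranged from 0.000232 to 0.0581 for Scg3, from 0.000157 to 0.0538 for Chga and from 0.00121 to 0.0928 for Scg5.

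**Figure D3:**
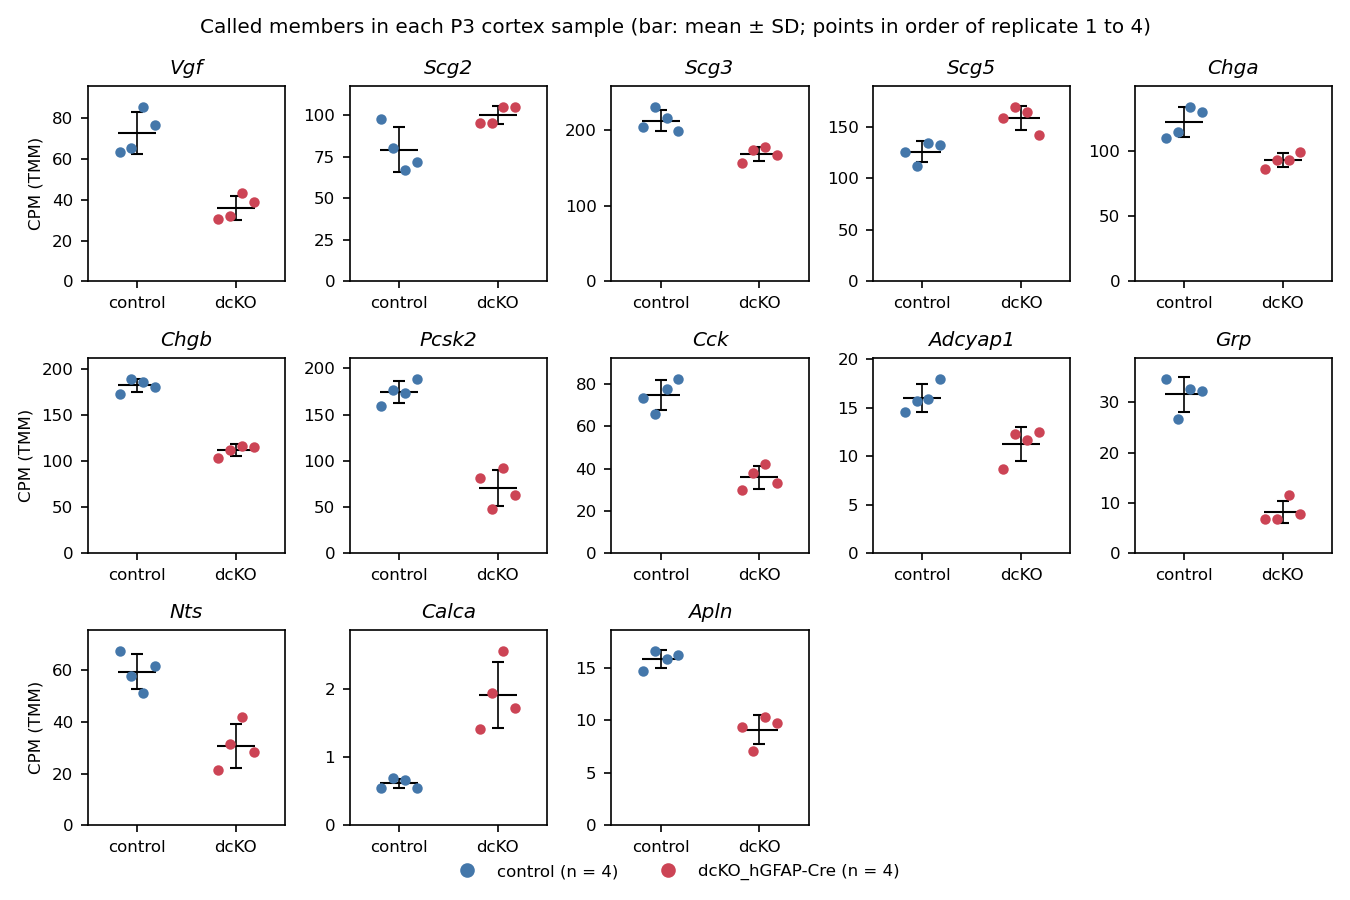
CPM (TMM-scaled) of the 13 called members in each sample, with 1 panel per gene, an axis from 0, points in order of replicate and bars at the mean ± SD (n = 4). Mutants (red) and controls (blue) are separate in every panel except Scg2, where control 1 lies at 97.8 CPM among the mutants.

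Of the 5 genes for processing enzymes and their inhibitor, 1 was called lower, Pcsk2 (20%, near the 18.9% of all genes tested). Pcsk2 (ENSMUSG00000027419, chr2:143546156-143816285, plus strand) encodes prohormone convertase PC2, and its levels were 159.7, 176, 174 and 188 CPM in controls and 81.4, 47.6, 92 and 62.7 CPM in mutants. It fell 2.46-fold (log2 fold change -1.30 ± 0.17 (SE), adjusted p = 0.000354). The groups were far apart, and mutants differed among themselves, with mutant 2 lowest. Antisense genes overlap Pcsk2, and their reads cannot be separated from its own without strand. Cpe, the most abundant member, was at 1002, 1099, 1145 and 1092 CPM in controls and 804, 858, 1161 and 751 CPM in mutants (log2 fold change -0.28 ± 0.12 (SE), adjusted p = 0.0823), so it missed the threshold. Mutants 1, 2 and 4 lay below all controls, whereas mutant 3 lay above them. Mutant 3 also had the highest level of Gfap, an astrocyte marker, at 24.1, 32.2, 273 and 26.2 CPM in mutants 1 to 4 against 89.5, 86, 79.3 and 86.2 CPM in controls. The part of astrocytes in the Cpe level was not tested. Without mutant 3, Cpe was called lower (log2 fold change -0.43, adjusted p = 0.00103), as it was with the lane as a block (adjusted p = 0.0216) and in lane 5 alone (adjusted p = 0.0242), and over all alternatives the adjusted p ranged from 0.00103 to 0.405.

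Pcsk1, which encodes convertase PC1/3, was at 2.99, 2.56, 3.79 and 2.46 CPM in controls and 2.18, 3.01, 2.46 and 3.29 CPM in mutants (log2 fold change -0.11 ± 0.20 (SE), adjusted p = 0.699). Mutants 2 and 4 lay within the control range, and mutants 1 and 3 lay just below it. Pcsk1n, which encodes proSAAS, an inhibitor of PC1/3, was at 215, 188, 284 and 277 CPM in controls and 194, 217, 233 and 205 CPM in mutants (log2 fold change -0.18 ± 0.12 (SE), adjusted p = 0.261), and every mutant fell within the control range. Pam, which encodes the amidating enzyme, was at 98.1, 96.1, 109 and 100.3 CPM in controls and 84.9, 103, 91.1 and 81.4 CPM in mutants (log2 fold change -0.16 ± 0.09 (SE), adjusted p = 0.157), where mutant 2 lay among the controls and the others below them. Without mutant 2, Pam was called lower (log2 fold change -0.24, adjusted p = 0.0404; 0.0404 to 0.765 over all alternatives). Genes annotated within or opposite Pcsk1n and Pam overlap them, so their counts are uncertain to that extent.

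Promoters were searched because granin and peptide genes are known as targets of the cAMP response element, and the motif is the letters TGACGTCA, which read the same on both strands. In RefSeq promoters of build GRCm38.p6, 250 bases before to 50 after the start, 34 of the 43 members had an entry. The motif was in 5 of these 34 (14.7%), namely Chgb, Cartpt, Scg2, Pcsk1 and Ucn, in 2 of the 104 genes of the related lists with an entry (1.92%; Sst and Sstr2), and in 549 of the 27025 genes of the table (2.03%). A match is a description of the sequence and not a measured site. The 4 printed here, in order of the size of the change, show that the motif stood in a promoter of a gene that fell, of a gene that rose and of 2 genes not called. Capitals mark the motif, whose first base lay 72, 112, 68 and 78 bases before the start. The windows were chr2:132781392-132781691, plus strand, for Chgb, chr13:99900634-99900933, minus strand, for Cartpt, chr1:79439977-79440276, minus strand, for Scg2, and chr13:75089607-75089906, plus strand, for Pcsk1, each written 5′ to 3′ along the gene.
Chgb: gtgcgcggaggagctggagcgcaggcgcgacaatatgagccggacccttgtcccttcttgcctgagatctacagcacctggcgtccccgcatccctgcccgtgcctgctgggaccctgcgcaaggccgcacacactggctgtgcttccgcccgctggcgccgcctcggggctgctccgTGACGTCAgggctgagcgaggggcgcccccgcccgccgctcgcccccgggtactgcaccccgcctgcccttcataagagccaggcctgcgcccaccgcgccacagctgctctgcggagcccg
Cartpt: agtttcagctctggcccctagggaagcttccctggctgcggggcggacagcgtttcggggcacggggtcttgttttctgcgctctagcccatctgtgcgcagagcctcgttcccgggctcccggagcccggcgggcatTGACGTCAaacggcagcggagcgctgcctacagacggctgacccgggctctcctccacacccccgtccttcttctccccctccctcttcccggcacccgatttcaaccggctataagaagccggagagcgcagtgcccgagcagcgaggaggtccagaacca
Scg2: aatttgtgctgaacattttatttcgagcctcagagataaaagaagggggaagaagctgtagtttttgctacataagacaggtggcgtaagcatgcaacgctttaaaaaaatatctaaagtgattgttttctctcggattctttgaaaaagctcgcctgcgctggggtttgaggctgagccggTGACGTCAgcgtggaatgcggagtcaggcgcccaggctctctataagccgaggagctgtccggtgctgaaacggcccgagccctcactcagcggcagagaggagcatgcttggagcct
Pcsk1: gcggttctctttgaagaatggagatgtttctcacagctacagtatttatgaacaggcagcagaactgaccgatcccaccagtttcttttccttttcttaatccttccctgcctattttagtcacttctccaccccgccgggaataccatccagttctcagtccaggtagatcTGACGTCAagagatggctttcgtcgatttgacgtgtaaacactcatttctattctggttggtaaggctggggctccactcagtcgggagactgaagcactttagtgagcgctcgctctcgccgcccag

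The next group held 12 precursors, Rln3 and 11 known from cortical neurons. The 11 were tested, 4 were lower (36.4%, against 18.9% of all genes tested) and none was higher. The level of Grp (ENSMUSG00000024517), the precursor of gastrin-releasing peptide, was 34.6, 26.7, 32.7 and 32.2 CPM in controls and 6.8, 6.82, 11.5 and 7.76 CPM in mutants. It fell 3.83-fold (log2 fold change -1.94 ± 0.17 (SE), adjusted p = 6.09e-06), the largest change of any tested member. Every mutant was below every control, and mutant 3 was the highest of the mutants. Cck (ENSMUSG00000032532, chr9:121489824-121495694, minus strand), the precursor of cholecystokinin, was at 73.3, 66.1, 77.5 and 82.4 CPM in controls and 30.2, 37.9, 42.5 and 33.1 CPM in mutants. The groups did not overlap, and Cck fell 2.08-fold (log2 fold change -1.06 ± 0.11 (SE), adjusted p = 2.87e-05). Nts (ENSMUSG00000019890, chr10:102481756-102490486, minus strand), the precursor of neurotensin and neuromedin N, was at 67.3, 57.4, 51.1 and 61.4 CPM in controls and 21.6, 31.5, 41.8 and 28.2 CPM in mutants (log2 fold change -0.95 ± 0.17 (SE), adjusted p = 0.00158). Mutant 3 came closest to the controls and mutant 1 was lowest. Adcyap1 (ENSMUSG00000024256, chr17:93199017-93206537, plus strand), the precursor of PACAP, was at 14.5, 15.6, 15.8 and 17.9 CPM in controls and 8.72, 12.2, 11.6 and 12.5 CPM in mutants (log2 fold change -0.50 ± 0.13 (SE), adjusted p = 0.0104). No mutant reached the controls, but the call was lost without mutants 1 and 2 (adjusted p = 0.0779) and in lane 5 alone (adjusted p = 0.0529; 0.0014 to 0.0779 over all alternatives). Another gene overlaps Grp and makes its counts uncertain to that extent.

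The other 7 tested precursors of this group were not called. Pnoc, the precursor of nociceptin, was at 7.09, 6.61, 8.2 and 8.44 CPM in controls and 9.79, 11.1, 9.11 and 8.66 CPM in mutants (log2 fold change 0.35 ± 0.13 (SE), adjusted p = 0.0595). Its groups did not overlap although it missed the threshold, which it passed without mutant 4 (log2 fold change 0.41, adjusted p = 0.0336), in lane 5 alone, with library totals and with a stricter filter (0.0141 to 0.369 over all alternatives). The log2 fold change was -0.08 ± 0.17 for Cort (cortistatin), -0.03 ± 0.23 for Trh (thyrotropin-releasing hormone) and -0.20 ± 0.20 for Crh (corticotropin-releasing hormone). It was -0.25 ± 0.25 for Tac2 (neurokinin B), 0.38 ± 0.27 for Nmb (neuromedin B) and 0.38 ± 0.25 for Cartpt (the CART peptide precursor), with overlap in each and adjusted p from 0.248 (Cartpt) to 0.94 (Trh). Mean levels of these 6 ran from 0.961 CPM (Tac2 in mutants) to 5.39 CPM (Cort in controls), so their counts carry more error than those of Cck or Nts. Rln3, the relaxin-3 precursor, failed the filter with 0, 2, 0 and 0 counts in controls and 2, 0, 0 and 2 in mutants.

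The precursors known chiefly from hypothalamic neurons, with Ucn placed beside them, were at low levels or near 0. Of 12, 3 were tested and none was called, where 37.5% of all genes tested were called. The 3 were Pomc, the precursor of melanocortins and beta-endorphin (log2 fold change 0.23 ± 0.28 (SE), adjusted p = 0.535), Agrp, the melanocortin antagonist (log2 fold change 0.11 ± 0.31 (SE), adjusted p = 0.812), and Gal, the precursor of galanin (log2 fold change 0.49 ± 0.25 (SE), adjusted p = 0.133). Other genes overlap Agrp, as they do Nmb, Npff, Prok2, Pmch, Nppa and Nmu, which makes their counts uncertain. The remaining 8 that were matched failed the filter. Oxt, the precursor of oxytocin, had 0, 1, 0 and 1 counts in controls and 0, 1, 0 and 0 in mutants, and Avp, that of vasopressin, had 0, 5, 10 and 0 in controls and 5, 1, 1 and 5 in mutants. Hcrt, the precursor of hypocretins, had 1, 0, 4 and 1 counts in controls and 2, 3, 7 and 9 in mutants, and Pmch, that of melanin-concentrating hormone, had 1, 0, 1 and 0 in controls and 0, 1, 0 and 2 in mutants. None of these 4 reached more than 10 counts in a sample. Npvf, which encodes RFamide-related peptides, summed to 1 count over the controls and 5 over the mutants, Ucn (urocortin) to 6 and 1, Ucn3 (urocortin 3) to 2 and 14, and Npw (neuropeptide W) to 9 and 20. These 8 genes were not tested. Ucn3 had 1, 1, 0 and 0 counts in controls and 5, 4, 2 and 3 in mutants, and Ucn had 1, 2, 2 and 1 in controls and 0, 0, 1 and 0 in mutants. In CPM all mutants lay above all controls for Ucn3 and below them for Ucn, at levels where 3 counts in a sample correspond to 0.0906 to 0.148 CPM.

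Hypothalamic transcription factors were also low. The 10 markers of the hypothalamus summed to 3.17, 1.97, 1.93 and 1.18 CPM in controls and 8.64, 11.4, 5.87 and 7.21 CPM in mutants, and 3 of the 4 tested were called higher, while 6 were under the filter. Nkx2-1, also expressed in ventral telencephalic cells, was the most abundant per length (TPM) in both groups, while Rax and Six6 were at 0 in every sample. Sim1 and Otp, named after their values were seen, were called higher from near 0. The log2 fold change was 3.74 ± 0.70 (SE) for Sim1 (adjusted p = 0.0016) and 2.75 ± 0.69 (SE) for Otp (adjusted p = 0.0112). Every mutant lay above every control for both.

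Of the 8 precursors known chiefly from other neurons or other tissues, 5 were tested, 1 was higher and 1 was lower. These shares, 20% each, were near the 18.6% higher and 18.9% lower of all genes tested. Calca (ENSMUSG00000030669, chr7:114631478-114636357, minus strand), which encodes calcitonin and the calcitonin gene-related peptide (CGRP) by alternative splicing, had 12, 14, 20 and 16 counts in controls and 33, 46, 75 and 57 in mutants. In CPM these were 0.552, 0.69, 0.664 and 0.555 in controls and 1.41, 1.95, 2.56 and 1.72 in mutants. Every mutant exceeded every control, and Calca rose 3.1-fold from a low level (log2 fold change 1.63 ± 0.25 (SE), adjusted p = 0.000383). The gene counts do not separate its products. Apln (ENSMUSG00000037010, chrX:48025146-48034853, minus strand), the precursor of apelin, was at 14.7, 16.6, 15.8 and 16.2 CPM in controls and 9.4, 7.08, 10.3 and 9.72 CPM in mutants (log2 fold change -0.79 ± 0.13 (SE), adjusted p = 0.000569). The groups did not overlap, and mutant 2 was lowest. Endothelial cells are a known source of apelin, and 4 of 7 endothelial markers were lower too. Those markers summed to 181, 196, 238 and 209 CPM in controls and 170.3, 154, 176 and 99.9 CPM in mutants, with Cldn5 the most abundant in both groups per length (TPM), and their part in the Apln level was not tested.

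Nppc, the precursor of C-type natriuretic peptide, was at 1.2, 2.32, 2.92 and 3.09 CPM in controls and 3.29, 3.9, 3.58 and 4.2 CPM in mutants (log2 fold change 0.64 ± 0.25 (SE), adjusted p = 0.0597). Its groups did not overlap, and it passed the threshold in 8 of the 18 alternatives, among them DESeq2 (adjusted p = 0.0492), the lane as a block (adjusted p = 0.0341) and the fit without control 4 (log2 fold change 0.78, adjusted p = 0.0454; 0.0252 to 0.156 over all alternatives). Npff, the precursor of neuropeptide FF, had a log2 fold change of 0.26 ± 0.27, and Prok2, which encodes prokineticin 2, of 0.51 ± 0.28, and neither was called. Calcb, which encodes a second form of CGRP, failed the filter with 3, 1, 0 and 4 counts in controls and 5, 6, 8 and 6 in mutants, where no mutant overlapped the controls in CPM and no test was made. Nppa, the precursor of atrial natriuretic peptide, summed to 13 counts in controls and 18 in mutants, and Nmu, that of neuromedin U, to 3 and 2.

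A list of 34 further precursor genes was set beside the members. Of these, 14 were tested, 6 were higher (42.9%, against 18.6% of all genes tested) and 1 was lower (7.14%, against 18.9%), with a median log2 fold change of 0.10. Sst, the precursor of somatostatin, was named after its values were seen. Its levels were 95.6, 80.9, 104 and 111 CPM in controls and 180.4, 219, 218 and 178 CPM in mutants (log2 fold change 1.02 ± 0.11 (SE), adjusted p = 3.04e-05). Every mutant was above every control. The 11 markers of GABAergic interneurons, the cells known for somatostatin, summed to 669, 714, 675 and 661 CPM in controls and 1062, 1046, 899.8 and 1053 CPM in mutants. Of these markers 10 were higher and none lower, Dlx1 was the most abundant per length (TPM) in both groups, and their part in the Sst level was not tested. Their log2 fold changes ran from 0.191 (Maf, not called) to 0.91 (Dlx6os1). Gad1, Gad2, Slc32a1 and the Dlx genes among them are not confined to interneurons. Npy and Vip, the precursors of neuropeptide Y and vasoactive intestinal peptide, are also known from interneurons and were likewise named after their values were seen. Neither was called, and the groups overlapped for Npy (log2 fold change 0.17 ± 0.11 (SE), adjusted p = 0.246) and for Vip (log2 fold change -0.29 ± 0.20 (SE), adjusted p = 0.272). With library totals Npy was called higher (log2 fold change 0.29, adjusted p = 0.045; 0.045 to 0.641 over all alternatives).

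Sct and Gcg, which encode secretin and proglucagon, were also called higher but lay under 1 CPM in every sample. The remaining 3 higher genes are precursors known from striatal neurons. Tac1, the precursor of substance P, was at 4.88, 9.76, 6.14 and 4.62 CPM in controls and 36, 14.1, 47.7 and 26.2 CPM in mutants (log2 fold change 2.30 ± 0.41 (SE), adjusted p = 0.00371). Penk, the precursor of enkephalins, was at 4.23, 9.32, 6.17 and 4.13 CPM in controls and 34, 6.7, 51.5 and 17.3 CPM in mutants (log2 fold change 2.21 ± 0.65 (SE), adjusted p = 0.0351). Pdyn, the precursor of dynorphins, was at 6.86, 9.46, 6.44 and 5.69 CPM in controls and 24.2, 11.8, 23.7 and 18 CPM in mutants (log2 fold change 1.46 ± 0.23 (SE), adjusted p = 0.00065). In each of the 3, mutant 2 was the lowest mutant, and for Penk it lay among the controls. In lane 5 alone, a fit of 2 samples against 2, none of the 3 was called, with log2 fold changes of 1.77 for Tac1 (adjusted p = 0.252), 1.58 for Penk (adjusted p = 0.474) and 1.13 for Pdyn (adjusted p = 0.11). The call of Penk was also lost in limma-voom, without a filter, with the lane as a block, and without any one of control 1 (0.0844), control 3 (0.0929), control 4 (0.0968), mutant 1 (0.068) or mutant 3 (0.0695), with the adjusted p of each in parentheses. Over all alternatives it ranged from 0.00316 to 0.474 for Penk. For Tac1 the range was 1.61e-06 to 0.252 and for Pdyn 3.59e-09 to 0.11. The sum of the 12 striatal markers was lowest in mutant 2 among the mutants, at 324, 409.6, 313 and 313 CPM in controls and 904, 463, 906 and 603 CPM in mutants. Of these markers 7 were higher and none lower, and their part in the rises of Tac1, Penk and Pdyn was not tested. Foxp1 was the most abundant per length (TPM) in controls and Ppp1r1b in mutants. Ppp1r1b itself was lowest in mutant 4, at 343.3, 276.4, 341.8 and 270.6 CPM in mutants 1 to 4. Agt, the precursor of angiotensins, was lower at 1.93, 1.13, 1.53 and 1.67 CPM in controls and 0.983, 0.212, 0.819 and 0.0906 CPM in mutants (log2 fold change -1.60 ± 0.51 (SE), adjusted p = 0.0301), a call lost without any one of control 1 (0.0635), control 3 (0.0646), control 4 (0.0693) or mutant 2 (0.0717). It was also lost without a filter, without mutants 1 and 2 and in lane 5 alone (adjusted p 0.00886 to 0.12 over all alternatives).

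Of 57 receptors and binding proteins for these peptides, 45 were tested, 15 were lower (33.3%, against 18.9% of all genes tested) and 8 were higher (17.8%, near the 18.6% of all genes), with a median log2 fold change of -0.21. Ntsr1, a receptor for neurotensin, was at 76.3, 80.2, 101 and 95.7 CPM in controls and 17.8, 15, 21 and 22.9 CPM in mutants (log2 fold change -2.20 ± 0.14 (SE), adjusted p = 9.5e-07). It was thus lower in every mutant, as was its ligand gene Nts. Sstr4, a somatostatin receptor, was at 6.35, 6.56, 7.14 and 7.18 CPM in controls and 1.75, 1.31, 2.39 and 2.78 CPM in mutants (log2 fold change -1.71 ± 0.21 (SE), adjusted p = 8.02e-05). The somatostatin receptors Sstr1, Sstr2 and Sstr3 were named after their values were seen and were lower as well, with log2 fold changes of -1.09 ± 0.17 for Sstr1, -1.58 ± 0.15 for Sstr2 and -1.26 ± 0.19 for Sstr3. For these 4 receptors every mutant lay below every control, while Sst was higher. Sstr5, also named after its values were seen, was not called and its groups overlapped (log2 fold change 0.97 ± 0.44 (SE), adjusted p = 0.103). Nmbr, the neuromedin B receptor, was at 1.56, 1.73, 1.69 and 1.15 CPM in controls and 5.0, 5.04, 5.32 and 6.07 CPM in mutants (log2 fold change 1.81 ± 0.18 (SE), adjusted p = 1.8e-05). Calcr, the calcitonin receptor, had 6, 0, 4 and 1 counts in controls and 16, 34, 34 and 59 in mutants, and was called higher from that low level (log2 fold change 3.49 ± 0.55 (SE), adjusted p = 0.000475). With 1 sample left out, the log2 fold change of Calcr ranged from 3.16 to 4.25.

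Receptors of other members were also named after their values were seen. Prokr2, a prokineticin receptor, fell (log2 fold change -1.53 ± 0.15 (SE), adjusted p = 1.43e-05), while its ligand gene Prok2 was not called. For Crhr1, a receptor of corticotropin-releasing hormone, the change was likewise a fall (log2 fold change -1.29 ± 0.13 (SE), adjusted p = 1.95e-05), with Crh itself not called. Crhr2, a further receptor of this hormone, went the other way and was called higher (log2 fold change 0.94 ± 0.26 (SE), adjusted p = 0.0136), as was Crhbp, which encodes its binding protein (log2 fold change 0.62 ± 0.16 (SE), adjusted p = 0.01). Every mutant lay above every control for both, and the call was lost without mutants 1 and 2 for Crhr2 (adjusted p = 0.119; 0.00651 to 0.119 over all alternatives) and in lane 5 alone for Crhbp (adjusted p = 0.0806; 0.00326 to 0.0806 over all alternatives). Sort1, a sorting receptor that binds neurotensin, fell (log2 fold change -0.76 ± 0.10 (SE), adjusted p = 0.000104), and other genes overlap it. The log2 fold change was 0.50 ± 0.21 for Ntsr2 (neurotensin), -0.46 ± 0.21 for Vipr1 and -0.37 ± 0.18 for Vipr2 (both also bind PACAP), and -0.29 ± 0.20 for Prokr1 (prokineticin), and none of these 4 was called. Without control 3, Vipr1 was called lower (adjusted p = 0.0498; 0.0299 to 0.273 over all alternatives), and without mutant 1, Ntsr2 was called higher (adjusted p = 0.0333; 0.0332 to 0.888 over all alternatives). Adcyap1r1, the PACAP receptor, fell by less (log2 fold change -0.37 ± 0.07 (SE), adjusted p = 0.00209).

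Trhr, a receptor of thyrotropin-releasing hormone, rose (log2 fold change 0.91 ± 0.16 (SE), adjusted p = 0.000828), and Trh was not called. The apelin receptor gene Aplnr was lower (log2 fold change -0.59 ± 0.17 (SE), adjusted p = 0.0196), a call lost without control 2 (log2 fold change -0.56, adjusted p = 0.0522), without control 3 (log2 fold change -0.48, adjusted p = 0.0638), without mutants 1 and 2 and in lane 5 alone (0.00273 to 0.0714 over all alternatives). Grpr, the receptor of gastrin-releasing peptide, was low at 0.598, 0.838, 0.863 and 0.972 CPM in controls and 0.342, 0.254, 0.409 and 0.694 CPM in mutants, and it was only just called (log2 fold change -0.91 ± 0.33 (SE), adjusted p = 0.0454). That call was lost in DESeq2, with library totals, without a filter, without mutants 1 and 2, in lane 5 alone, and without any one of control 2 (0.085), control 3 (0.0989), control 4 (0.117), mutant 1 (0.114), mutant 2 (0.117) or mutant 3 (0.0764), with the adjusted p of each in parentheses (0.0106 to 0.329 over all alternatives). Oprl1, the nociceptin receptor, had a log2 fold change of -0.21 with a standard error of 0.07, and its adjusted p was 0.0366. That call held in only 7 of the 18 alternatives. With library totals the log2 fold change was -0.09 (adjusted p = 0.335), and with the lane as a block the adjusted p was 0.0596. The call was also lost without a filter, with a stricter filter, without mutants 1 and 2, in lane 5 alone, and without any one of control 3 (0.117), control 4 (0.0714), mutant 2 (0.0643) or mutant 3 (0.0752) (adjusted p 0.0117 to 0.382 over all alternatives). Cckbr, a cholecystokinin receptor, was not called (log2 fold change -0.03 ± 0.22 (SE), adjusted p = 0.928).

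**Figure D4:**
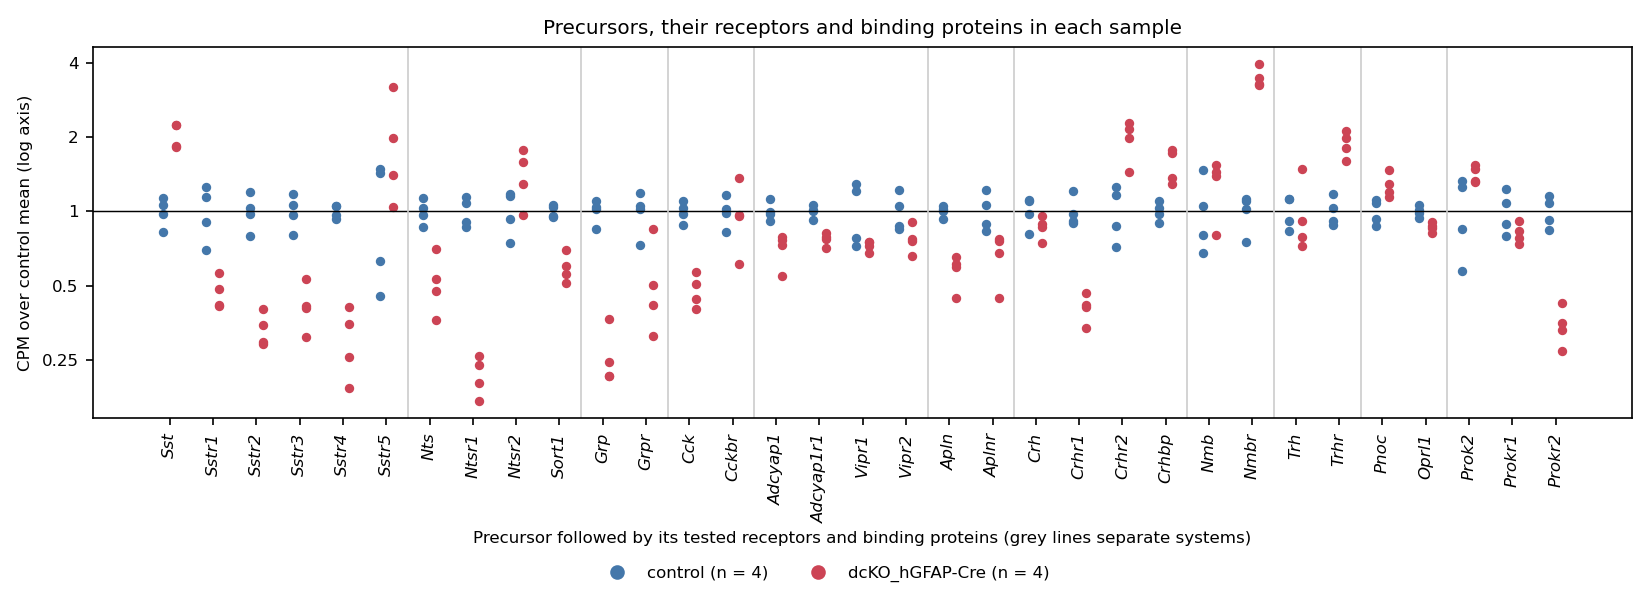
CPM of each sample divided by the control mean (log axis) for 11 precursor genes, each followed by its tested receptors and binding proteins, with controls in blue and dcKO_hGFAP-Cre samples in red. Sst lies above 1 in every mutant and Sstr1 to Sstr4 below 1, whereas Sstr5 overlaps the controls, Nts and Ntsr1 are both below 1, and Nmbr is more than 3 times the control mean in each mutant.

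All 21 further processing and degrading peptidases were tested, and 8 were lower (38.1%, against 18.9% of all genes tested) and 1 was higher (4.76%, against 18.6%), with a median log2 fold change of -0.24. Pcsk5 and Pcsk6 encode convertases of the general secretory pathway. Pcsk5 was at 27, 24.4, 22.1 and 19.2 CPM in controls and 11.1, 10.4, 11.1 and 11.8 CPM in mutants (log2 fold change -1.06 ± 0.12 (SE), adjusted p = 4.54e-05). Pcsk6 was at 13.3, 10.8, 14.3 and 12.7 CPM in controls and 6.2, 7.2, 6.48 and 6.25 CPM in mutants (log2 fold change -0.97 ± 0.13 (SE), adjusted p = 0.000124). Cpd, a carboxypeptidase of the trans-Golgi network, was at 112, 116, 113 and 101 CPM in controls and 70.6, 66.2, 65.4 and 87.8 CPM in mutants (log2 fold change -0.60 ± 0.10 (SE), adjusted p = 0.000615). All mutants lay below all controls for these 3 genes. Ece2, an endothelin-converting enzyme that also cleaves neuropeptides, was higher at 23.7, 18.9, 14.4 and 15.8 CPM in controls and 29.3, 28.1, 23.2 and 33.1 CPM in mutants (log2 fold change 0.65 ± 0.16 (SE), adjusted p = 0.00688), with overlap between control 1 and mutant 3. Another gene overlaps Ece2, and its call was lost without mutants 1 and 2 (adjusted p = 0.073) and in lane 5 alone (adjusted p = 0.0548; 0.000563 to 0.073 over all alternatives).

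Of 24 genes for dense-core vesicle formation and release, 12 were lower (50%, against 18.9% of all genes tested) and 1 was higher (4.17%, against 18.6%), with a median log2 fold change of -0.24. Ptprn2, a vesicle membrane protein also called phogrin, was at 182, 187, 219 and 193 CPM in controls and 99.5, 84.2, 88.7 and 113 CPM in mutants (log2 fold change -1.02 ± 0.10 (SE), adjusted p = 1.49e-05). Cadps2, a priming factor of vesicle release, was at 33.3, 41, 41.2 and 40.4 CPM in controls and 19.5, 22.7, 22.4 and 22.9 CPM in mutants (log2 fold change -0.83 ± 0.10 (SE), adjusted p = 6.62e-05). Syt4, a synaptotagmin of dense-core vesicles, was at 401, 475, 446 and 469.6 CPM in controls and 223, 264, 282 and 282 CPM in mutants (log2 fold change -0.77 ± 0.09 (SE), adjusted p = 5.62e-05). Groups did not overlap for any of the 3. Rab27a, a small GTPase of secretory vesicles, was higher at 1.89, 2.86, 3.12 and 2.43 CPM in controls and 3.59, 3.39, 4.54 and 4.56 CPM in mutants (log2 fold change 0.64 ± 0.20 (SE), adjusted p = 0.0218), a call lost without control 1 (log2 fold change 0.52, adjusted p = 0.0527), without control 4 (log2 fold change 0.61, adjusted p = 0.0601) and in lane 5 alone (0.00795 to 0.187 over all alternatives). Other genes overlap these 4, as they do Pcsk5, Pcsk6, Sstr2, Nmbr and Penk, and may share their reads. One gene of this list, Snap25, is also among the general neuronal markers.

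The part of the remaining marker lists in these results was not tested. Activity-dependent early genes were higher in 5 of 9 cases and lower in none, with sums of 63.7, 74, 60 and 68.1 CPM in controls and 94.3, 77.3, 121 and 119 CPM in mutants. Per length (TPM) their most abundant gene was Nr4a1 in controls and Egr1 in mutants. Choroid plexus markers summed to 12.7, 18, 9.23 and 9.58 CPM in controls and 631, 1201, 27 and 13.8 CPM in mutants, with 3 of 9 higher. Mutant 4 lay within the control range of that sum, which Ttr dominates in mutants 1 and 2. Otx2 and Kcne2, named after their values were seen, lay above every control in every mutant. Otx2 was at 8.55, 13.64, 3.07 and 3.955 CPM in mutants and 0.2761, 0.2465, 0.2324 and 0.0694 CPM in controls (log2 fold change 5.15 ± 0.63 (SE), adjusted p = 0.000317). Thalamic markers summed to 102, 96.6, 100.5 and 86.6 CPM in controls and 115, 150.5, 114 and 129 CPM in mutants, 4 of 8 higher and 1 lower, with Slc17a6, a glutamate transporter, the most abundant in both groups (TPM). Slc17a6 itself was not called. Among the higher ones, Shox2, named after its values were seen, was at 0.046, 0.296, 0 and 0 CPM in controls and 17.49, 17.12, 12.72 and 16.45 CPM in mutants. Microglial markers summed to 163, 160, 135 and 126 CPM in controls and 243, 276, 250.2 and 229 CPM in mutants, with 7 of 9 higher. Markers of hippocampus summed to 208, 225, 226 and 197 CPM in controls and 304, 307, 272 and 326 CPM in mutants, with 3 of 7 tested higher and 1 lower, and with Lmo1 the most abundant in controls and Calb2 in mutants (TPM). Every mutant lay above every control in the thalamic, microglial and hippocampal sums. Astrocyte and radial glia markers summed to 1815, 1921, 1786 and 1789 CPM in controls and 1406, 1560, 2685 and 1249 CPM in mutants, with 1 of 8 lower and Fabp7 the most abundant in both groups (TPM). Mutant 3 was the highest of all samples in that sum. None of the 8 markers of meninges and fibroblasts was called, with sums of 94.1, 72.8, 155 and 71.3 CPM in controls and 208, 85.3, 173 and 38.5 CPM in mutants and Pdgfrb the most abundant in both groups (TPM). None of the 5 erythrocyte markers was called, with sums of 73.1, 53.5, 67.8 and 62.2 CPM in controls and 92.1, 130, 117 and 37.1 CPM in mutants and Hbb-bs the most abundant in both groups (TPM).

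**Figure D5:**
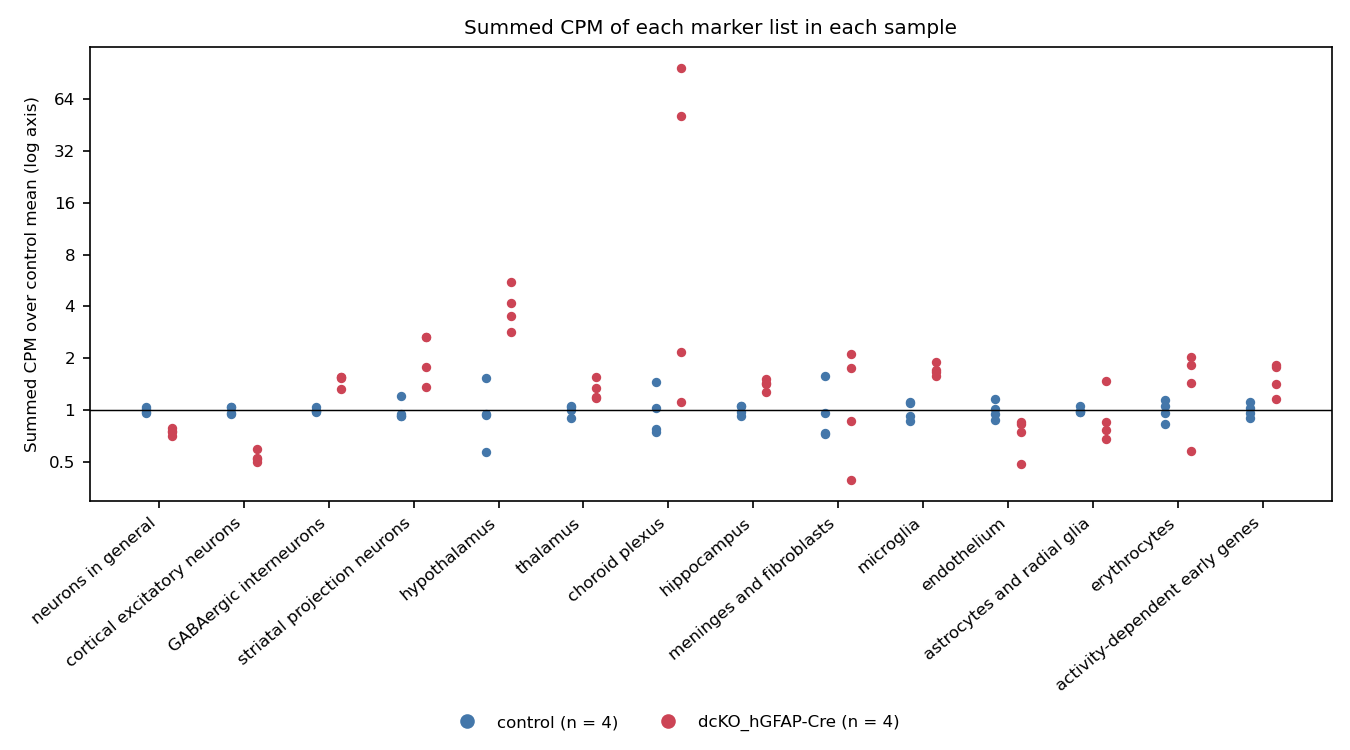
Summed CPM of each of 14 marker lists in each sample, divided by the control mean (log axis), with 4 control (blue) and 4 dcKO_hGFAP-Cre (red) samples. General and excitatory neuronal markers lie below 1 in every mutant, GABAergic markers above 1, and choroid plexus markers are highest in mutants 1 and 2.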

How the data were processed

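RNA was isolated with TRIZOL and libraries were made with the TruSeq RNA kit, which does not mark strand. Reads were mapped to mm10 by the authors, who assigned them to genes in featureCounts and deposited the raw counts without normalization. The aligner, annotation and strand setting are not given in the sources used here. Of 48709 Ensembl identifiers, 48349 were matched in GENCODE M21 (GRCm38), and 30608 had a count. Groups came from the sample labels.

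Counts of all genes entered the quasi-likelihood test of edgeR 4.0.16 in R 4.3.3, with robust dispersions, TMM scaling, a minimum count of 10 in the low-count filter and no block. For 16525 genes tested, p-values were Benjamini-Hochberg adjusted with 0.05 as the threshold, and each standard error was the log2 fold change over the root of F. The code was tested on simulated data. TPM used the union of exons. Differences within lanes used log2(CPM + 0.5). No pair of replicates agreed within sampling noise. Where the labels give only a replicate number, p-values measure the spread between these samples.

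Members and lists were chosen with earlier results of these data known. Full values were given for members called with a mean of at least 1 CPM in a group, all granins and enzymes were named, members under the filter were given by counts, and each related list gave its 4 called genes with the largest change at that level. Marker lists gave their most abundant gene per length (TPM) in each group, except 1 list, for which it is not reported here. Genes named beyond this rule were chosen after their values were seen. A floor of 3 counts per sample was used, and it covers counting error only. Galr3 and Kiss1 were not analysed here. Alternatives were DESeq2 1.42.0, limma-voom 3.58.1, other scalings and filters, blocks for replicate number and lane, and leaving out each sample. Leaving out mutants 1 and 2, and using lane 5 alone, were chosen after the data were seen. Promoter sequences came from RefSeq.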

Additional observations from a re-analysis of the deposited data

Results flagged for a closer look

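Among 198 groups of 4 samples, for the matched members, the other genes given with a test, Neurod6, Ttr, Gfap and the marker sums, 9 had a sample far from the other 3, where chance gives about 1 in 20. Cadps2, the vesicle priming factor, had such a sample in both groups. In controls, sample 1 was at 33.3 CPM against 40.4 to 41.2 CPM in the others, a gap of 0.907 of the whole range. In mutants, sample 1 was at 19.5 CPM against 22.4 to 22.9 CPM in the others, a gap of 0.835 of the range. The 2 samples shared lane 5 with samples 2 of each group, which did not stand apart.

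Gfap, the astrocyte marker, was at 273 CPM in mutant 3 against 24.1 to 32.2 CPM in the other mutants, a gap of 0.968 of the range. The summed markers of GABAergic interneurons were lowest in mutant 3, at 899.8 CPM against 1046 to 1062 CPM in the other mutants, a gap of 0.900 of the range. The summed striatal markers were highest in control 2, at 409.6 CPM against 313 to 324 CPM in the other controls, a gap of 0.888 of the range. The other 4 were members under the filter in which 1 sample of a group held 1 or 2 counts and the other 3 held 0, a gap of 1.0 of the range. They were Rln3 in control 2, Npvf in control 1, Oxt in mutant 2 and Ucn in mutant 3.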

How the results depend on the processing

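Of the 13 called members, 8 stayed past the threshold in all 18 alternatives and none changed sign. Both deleted genes stayed called throughout. The count of lower members was 7 to 11. With library totals 5 members, 2 further peptidases and 3 vesicle genes were higher, while 4 peptidases and 7 vesicle genes were lower. Without a filter 0 further precursors were lower, as was so under the stricter filter that asked each sample for 10 counts, which left Agt untested. The cause of the other differences was not tested.

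Leaving out 1 sample gave 2 to 3 higher members, 0 to 1 lower further precursors, 1 to 2 higher and 4 to 9 lower peptidases, and 0 to 1 higher vesicle genes. Over all genes tested, these fits gave 2199 to 3308 higher and 2375 to 3273 lower calls. The choices that follow were made after the data were seen and use fewer samples. Without mutants 1 and 2 there were 1 higher member, 0 lower further precursors, 0 higher and 3 lower peptidases, 5 lower vesicle genes, and 1388 higher and 1581 lower genes in all. In lane 5 alone there were 3 higher and 0 lower further precursors, 5 higher receptors, 0 higher and 5 lower peptidases, 0 higher vesicle genes and 1951 higher genes in all.

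Some genes that were not called changed sign. With library totals the log2 fold change was 0.009 for Pcsk1, 0.038 for Cort, 0.095 for Trh and 0.092 for Cckbr. Leaving out 1 sample gave -0.201 to 0.035 for Pcsk1, -0.185 to 0.009 for Cort, -0.306 to 0.084 for Trh, -0.069 to 0.147 for Agrp and -0.224 to 0.131 for Cckbr. Without mutants 1 and 2 it was 0.26 for Trh, -0.08 for Pomc and 0.224 for Cckbr, and in lane 5 alone 0.015 for Pcsk1n, 0.155 for Cort, -0.034 for Nmb and -0.054 for Ntsr2.

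Same-numbered samples did not deviate together in every pair (r = 0.18, -0.12, 0.18 and -0.082 across genes), nor did every sample correlate best with its own number, so the numbers were not taken to pair the samples. With the replicate block, 11 members were lower and 4 higher, and 2982 genes were lower and 2932 higher. It called Cpe and Nppc (adjusted p = 0.0299 and 0.0284) and ended the calls of Penk and Oprl1 (adjusted p = 0.163 and 0.0895). The 12 members under the filter had too few counts at this depth to be tested.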
